A study of Oryza sativa with 4 samples.

Results

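Xyloglucan fucosyltransferases and endoglucanases act on polysaccharides of the plant cell wall. Their RNA was followed in rice root hairs through 5 genes of the 29689 genes with a RAP identifier on the array. They were Os06g0212300, Os02g0763200 and Os02g0763900, which the study's gene list describes as xyloglucan fucosyltransferases, Os04g0674800, described there as a cellulase, and Os03g0329500, an endoglucanase of the KORRIGAN type. The genes were chosen by function and by their levels on these arrays, so the levels are a description. The first 4 belong to the study's list of root hair-preferential genes. Os03g0329500 is not in that list, and neither the list nor the array files annotate it.

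Each root hair is the outgrowth of 1 epidermal cell and extends at its tip, where new wall must be laid down and kept extensible. Xyloglucan is a hemicellulose that coats cellulose microfibrils. Arabidopsis FUT1, after which the rice genes are annotated, adds fucose to the galactose at the end of xyloglucan side chains in the Golgi. Xyloglucan of grass walls is known to be scarce and mostly without fucose. Plant cellulases of glycoside hydrolase family GH9 cut the backbone of beta-glucans. Many are secreted, whereas KORRIGAN, known from Arabidopsis, is anchored in membranes and is needed for normal cellulose synthesis.

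RNA came from hairs brushed off frozen seminal roots of untreated seedlings at 3 days after germination, and each of 4 samples was hybridised to 1 single-colour array. One array carries the cultivar label Lon-gin and is called the Lon-gin-labelled array. Replicates 1, 2 and 3 carry the label Don-gin, while the study's methods describe biological replicates of Dongjin alone. By the file headers, the Lon-gin-labelled array and replicate 3 lay on slide 2, and replicates 1 and 2 on slide 1, so that slide and sample preparation cannot be told apart. Before scaling, the 75th percentile of log2 signal lay between 11.49 and 11.80 on slide 2 and between 10.59 and 10.73 on slide 1. Probes well above background made up 85.3% to 88.5% of each slide 2 array and 71.4% to 74.0% of each slide 1 array. Of 8 marker genes for root hairs, other root cells and shoot, 1 could be matched to a probe, so RNA from other root cells was not assessed on these arrays. The study itself tested its samples by RT-PCR for a gene that it places in the stele, endodermis and exodermis, and for a root-hair marker. The marker matched to a probe here was a different one, the root-hair marker Os10g0578200 (CSLD1, a cellulose synthase-like gene needed for root-hair growth). Os10g0578200 was well above background on every array. In such bulk samples, fewer cells of a type and less RNA per cell cannot be told apart.

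The study searched the 2-kb promoters of its listed genes for the root hair-specific cis-element (RHE), a motif first described in Arabidopsis root-hair genes. The matches it lists for these genes are shown as the regulatory sequence at hand for them, and a listed match is not particular to them, since many other genes of the list have one. Each is given 5′ to 3′ as listed, with the letters CACG in capitals and with its strand after the gene.
Os06g0212300, plus strand: tgcgtgcctggCACGaa
Os06g0212300, minus strand: ttcgtgccaggCACGca
Os06g0212300, plus strand: tacatgggctgctcgta
Os02g0763200, plus strand: aatttgttccCACGac
Os02g0763900, plus strand: aacatgttggCACGac
Os02g0763900, minus strand: attatgcatgCACGga
Os04g0674800, minus strand: gatgtgcctcgCACGta
Os04g0674800, plus strand: tacgtgcgaggcacatc
Os04g0674800, minus strand: tttgagccatgCACGtc
The first pair of Os06g0212300 and the first pair of Os04g0674800 are reverse complements of each other, so these 4 of the 9 sequences stand for fewer separate sites. CACG was present as written in 7 of the 9 sequences, and in 8 of 9 when its reverse complement CGTG was also searched. Among the 245 sequences listed for other genes, 75.1% held CACG as written and 81.2% held it on either strand, a share close to that of these genes. A match is a description and not a site of binding. Os03g0329500 is outside the listed genes and its promoter was not analysed here.

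Each gene was read by 1 probe with 1 spot per array. Levels are log2 values of the processed signal that the authors extracted. They were scaled so that all arrays have the same 75th percentile, set at the mean of the 4. All 5 probes were well above background on all 4 arrays, as were 69.8% of all probes, and none was saturated or marked as an outlier. A log2 level above 8, the study's filter on signal, was exceeded on every array by 4 of the 5 genes, against 44.8% of all probes. These 4 are the genes of the study's list, which was drawn from genes that had passed this filter. The count is therefore not an independent result. The study applied the filter to its own normalized values, not to the levels scaled here. Levels of different probes depend on the probe as well as on the RNA and were not set against each other.

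**Figure D1:**
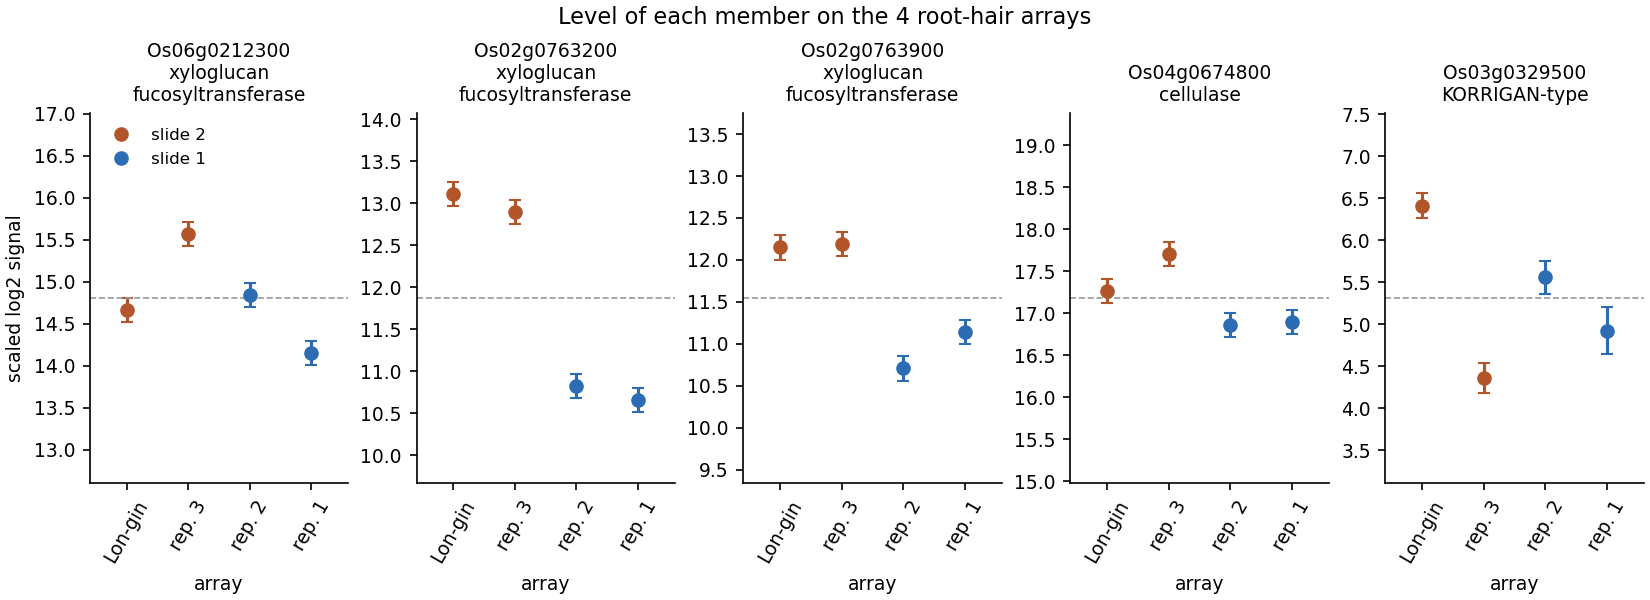
Scaled log2 signal of each gene on each array, in 1 panel per gene with its own vertical range of equal height; bars are the spot error of the scanner software on the log2 scale and dashed lines the mean of the 4 arrays. For Os02g0763200 the slide 2 arrays sit at 13.11 and 12.89, clear of the slide 1 arrays at 10.82 and 10.66, while for Os03g0329500 the slide 2 arrays hold both the highest and the lowest value.

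Among the fucosyltransferases, Os06g0212300 had a log2 level of 14.66 on the Lon-gin-labelled array, 15.57 on replicate 3, 14.84 on replicate 2 and 14.15 on replicate 1. The mean was 14.81 ± 0.59 (SD, n = 4). The slides overlapped, since replicate 2 of slide 1 lay above the Lon-gin-labelled array of slide 2. The highest and the lowest array were 2.68-fold apart. The scanner software assigned its spot an error of 0.14 on the log2 scale on each array. It assigned the same error to the other fucosyltransferases and the cellulase on each array. The spread was therefore not tested against a measured noise of this spot.

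Os02g0763200 had a log2 level of 13.11 on the Lon-gin-labelled array, 12.89 on replicate 3, 10.82 on replicate 2 and 10.66 on replicate 1. Both arrays of slide 2 were high and both of slide 1 low, with no overlap. The processed signal was 13855 and 9597 on slide 2, against 1349 and 1095 on slide 1. The mean was 11.87 ± 1.31 (SD, n = 4), and this SD was larger than that of 95.6% of the 29658 probes that were well above background on every array. The extreme arrays were 5.45-fold apart, whereas the arrays of 1 slide differed by 0.21 on slide 2 and by 0.16 on slide 1 on the log2 scale.

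Os02g0763900, the other fucosyltransferase gene of chromosome 2, had a log2 level of 12.15 on the Lon-gin-labelled array, 12.19 on replicate 3, 10.71 on replicate 2 and 11.14 on replicate 1. Here too slide 2 was higher without overlap. The mean was 11.55 ± 0.74 (SD, n = 4). The Lon-gin-labelled array and replicate 3 were within 0.04 of each other, and replicates 2 and 1 were 0.43 apart.

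The cellulase gene Os04g0674800 had the narrowest spread of the 5 genes, with an SD of 0.39. Its log2 level was 17.26 on the Lon-gin-labelled array, 17.71 on replicate 3, 16.86 on replicate 2 and 16.90 on replicate 1, with a mean of 17.18 (n = 4). The slides did not overlap. The processed signal was 246598 and 269958 on slide 2, against 88590 and 82755 on slide 1.

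The KORRIGAN-type gene Os03g0329500 was dim. Its processed signal was 134 on the Lon-gin-labelled array, 25.9 on replicate 3, 35.1 on replicate 2 and 20.5 on replicate 1. The corresponding log2 levels were 6.41, 4.36, 5.56 and 4.92, all below 8, with a mean of 5.31 ± 0.88 (SD, n = 4). The Lon-gin-labelled array was the highest and its slide partner the lowest, 4.15-fold apart. The median brightness of the spot was 153, 53.5, 83.0 and 70.0 on these arrays, over a local background between 20.0 and 22.0. Its spot error lay between 10.1% and 19.4% of the signal.

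Over the 5 genes the median SD was 0.74 on the log2 scale, against 0.38 over all probes well above background on all arrays. A range of more than 4-fold over the arrays was seen in 2 of the 5, Os02g0763200 and Os03g0329500, against 11.8% of those probes. The range of Os03g0329500 was close to that limit and was 3.17-fold under quantile normalization, 1.92-fold in the authors' log2 values and 1.32-fold under normexp with quantile normalization, whereas Os02g0763200 stayed above 4-fold in each of these. In the authors' log2 values Os06g0212300 (4.62-fold) and Os02g0763900 (4.59-fold) also exceeded 4-fold. Without scaling they did so too (4.99-fold and 5.72-fold), and Os03g0329500 reached 6.52-fold. Os04g0674800 stayed below 4-fold in both settings. Which genes passed the limit thus depended on the processing. These counts describe genes whose levels were known when they were chosen.

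Slide 2 was set against slide 1 in limma to see how far the levels differ between the slides, each of which holds its own samples. Os02g0763200 was higher on slide 2, with a mean of 13.00 on slide 2 and 10.74 on slide 1. The difference was 2.26 on the log2 scale (95% interval 1.56 to 2.96), or 4.79-fold, with a Benjamini-Hochberg adjusted p of 0.035 over all probes tested. It was the 1 gene of the 5 that passed, and 3.02% of all 35893 probes tested were called in this direction. The slide values of this gene had been seen before it was chosen, so the call is not independent support. The call was lost under quantile normalization, with a difference of 2.29 (limma adjusted p = 0.065). It held under normexp with quantile normalization, with a difference of 2.11 (limma adjusted p = 0.042). The difference was 2.18 without replicate 1, 2.34 without replicate 2, 2.37 without replicate 3 and 2.15 without the Lon-gin-labelled array. The call was lost in the first 2 of these fits, each of which leaves 1 array on 1 slide.

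Os02g0763900 had a mean of 12.17 on slide 2 and 10.92 on slide 1, a difference of 1.25 (95% interval 0.49 to 2.01, limma adjusted p = 0.11). Os04g0674800 had 17.48 on slide 2 and 16.88 on slide 1, a difference of 0.61 (95% interval -0.16 to 1.37, limma adjusted p = 0.32). Neither passed the test with the arrays scaled, but both passed without scaling and in the authors' log2 values, where the median over all probes tested was itself shifted by 1.08 and 0.48. Os06g0212300 had 15.12 on slide 2 and 14.50 on slide 1, a difference of 0.62 (95% interval -0.58 to 1.82, limma adjusted p = 0.47).

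Os03g0329500 had a mean of 5.39 on slide 2 and 5.24 on slide 1, and its difference of 0.15 (95% interval -1.86 to 2.15, limma adjusted p = 0.92) turned to -0.56 under quantile normalization and to -0.12 under normexp with quantile normalization. With an interval this wide, a difference between slides was not detectable for this gene.

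Slide 2 was higher without overlap for 3 of the 5 genes, the 2 fucosyltransferases of chromosome 2 and the cellulase, and for 24.4% of the probes that were well above background on every array. The reverse order held for 0 of the 5 and for 29.4% of those probes. The median difference was 0.62 over the 5 genes and -0.04 over those probes. The difference of Os02g0763200 was larger than that of 98.1% of them and the difference of Os02g0763900 larger than that of 91.7%.

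**Figure D2:**
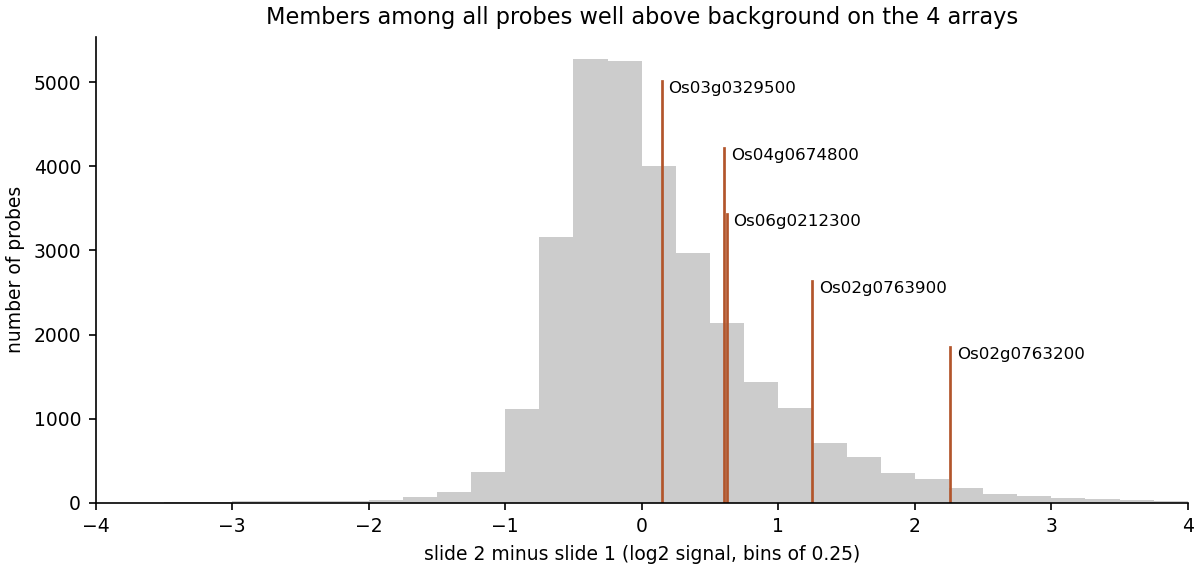
Number of probes (vertical axis) by the difference of slide 2 minus slide 1 in log2 signal (horizontal axis), for the 29658 probes that were well above background on every array, with a line for each gene whose height has no meaning. Os02g0763200 at 2.26 lies in the right tail and Os03g0329500 at 0.15 near the middle.

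The 3 Don-gin arrays served to test the Lon-gin-labelled array, to see whether the cultivar label goes with a difference. None of the 5 genes passed in limma (0 called, as against 0.00266% of all 37646 probes, which is 1 probe, of Os11g0615700, named after its values were seen). At an unadjusted p under 0.05 limma gave 3176 probes over the whole array. Os02g0763200 had 13.11 on the Lon-gin-labelled array and 11.46 ± 1.25 (SD, n = 3) on the Don-gin arrays, a difference of 1.65 with a 95% interval from -0.94 to 4.24 (limma adjusted p = 0.81). Within slide 2, however, it differed by 0.21 from replicate 3. With replicate 3 left out, its difference was 2.37. The Lon-gin-labelled array of slide 2 was then set against the slide 1 arrays alone, so that label and slide could not be told apart.

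Os03g0329500 had 6.41 on the Lon-gin-labelled array and 4.94 ± 0.60 (SD, n = 3) on the Don-gin arrays, a difference of 1.47 with a 95% interval from -0.08 to 3.01 (limma adjusted p = 0.62). It was the gene with the largest difference within slide 2, at 2.05 above replicate 3, and with the slide as a block the limma adjusted p was 0.077. The difference of 1.47 was 0.74 under quantile normalization, 0.65 in the authors' log2 values and 0.19 under normexp with quantile normalization. The Lon-gin-labelled array also had the largest share of probes well above background, and the part of that in this difference was not tested. The Lon-gin-labelled array was above all 3 others for 2 of the 5 genes, Os02g0763200 and Os03g0329500, and for 25.4% of the probes that were well above background on every array.

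The remaining differences of the Lon-gin-labelled array from the Don-gin arrays were 0.80 for Os02g0763900 (95% interval -0.99 to 2.59), 0.11 for Os04g0674800 (95% interval -1.28 to 1.49) and -0.19 for Os06g0212300 (95% interval -1.90 to 1.52). The limma adjusted p was 0.86, 0.97 and 0.95. Within slide 2 the Lon-gin-labelled array was lower than replicate 3 by 0.91 for Os06g0212300 and by 0.45 for Os04g0674800. The median absolute difference between these arrays was 0.31 over the probes well above background on every array. This comparison had 2 residual degrees of freedom, as did the slide comparison, and 1 array on 1 side. Its Don-gin arrays lie on both slides, so a difference between slides enters the spread on which these intervals rest.

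**Figure D3:**
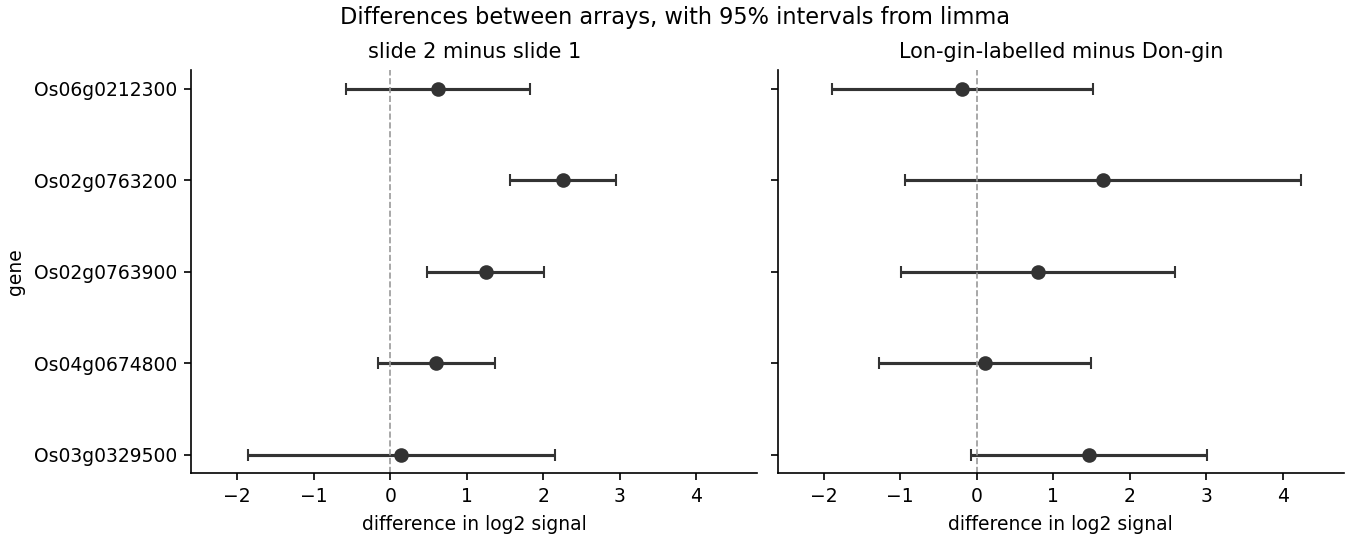
Difference in log2 signal (horizontal axis) for each gene (vertical axis), slide 2 minus slide 1 on the left and the Lon-gin-labelled array minus the 3 Don-gin arrays on the right, with 95% intervals from limma. The intervals of Os02g0763200 and Os02g0763900 lie above 0 on the left, where after adjustment over all probes only Os02g0763200 passed, and all 5 intervals on the right span 0.

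The fucosyltransferases of chromosome 2 lie close together in RAP order, with probes of 2 other genes between them. This stretch was looked at after the values of the pair had been seen. Between them, Os02g0763300 had 8.12 on the Lon-gin-labelled array and 8.12 on replicate 3, against 7.29 on replicate 2 and 7.27 on replicate 1. Os02g0763800 had 14.21 and 14.17 on the same slide 2 arrays, against 14.34 and 13.31 on slide 1, so that its slides overlapped. On the outer sides, Os02g0763000 had 10.09 and 11.39 on slide 2, against 9.97 and 9.91 on slide 1, and Os02g0764100 had 7.56 and 7.81, against 6.75 and 6.29. The order of slide 2 above slide 1 held for 3 of these 4 other genes, against 24.4% of the probes that were well above background on every array, with differences of 0.80, 0.84 and 1.16, none of which passed in limma (adjusted p = 0.42, 0.17 and 0.14). The difference between Os02g0763200 and its neighbours was not tested. Probes for paralogous genes can share targets, and the probe sequences were not used here, so cross-hybridisation between the fucosyltransferases was not assessed.

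**Figure D4:**
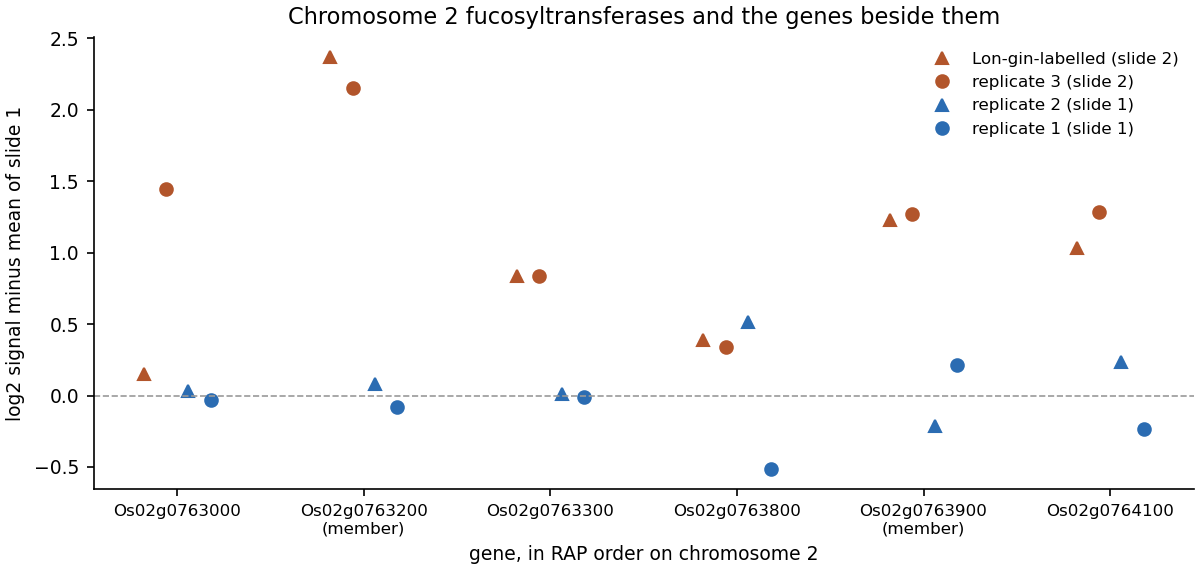
Log2 signal of each array minus the mean of slide 1 (vertical axis) for the genes of the chromosome 2 stretch in RAP order (horizontal axis). The slide 2 arrays are above both slide 1 arrays for every gene except Os02g0763800, and stand highest for Os02g0763200.

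Some of the next genes along the other chromosomes were not well above background on every array. Beside Os06g0212300, the probe of Os06g0212100 was well above background on 1 of 4 arrays. Beside Os03g0329500, the probes of Os03g0329200 were well above background on 1 and 2 arrays and that of Os03g0329700 on 2. Of the 11 probes for the 8 genes flanking the 5 members, 7 were well above background on all 4 arrays, a share near the 69.8% of all probes. Slide 2 lay above slide 1 without overlap for 6 of the 11, against 24.4% of the probes that were well above background on every array. The 6 included Os02g0763000 and Os02g0764100 of the chromosome 2 stretch. They also included the probes of Os06g0212500 and Os03g0329700 and 1 probe each of Os04g0675000 and Os03g0329200. Those of Os03g0329700 and Os03g0329200 were well above background on 2 arrays only. Outside the chromosome 2 stretch, the order was thus seen in probes well above background on every array only for Os06g0212500 and 1 probe of Os04g0675000.

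Other genes annotated with xyloglucan or as a fucosyltransferase, fucosidase, cellulase or endoglucanase could be named only from the study's list. Genes of cellulose synthesis were not part of this search. The study drew up its list on these samples, so presence there is no independent evidence. The list held 3 such genes besides the members, each well above background on every array. Os12g0149300, annotated as a xyloglucan xylosyltransferase, an enzyme that adds the first sugar of the side chains, had 13.96 and 14.63 on slide 2, against 13.27 and 12.86 on slide 1. Os06g0715300, annotated as cellulase 5, had 12.75 and 12.84 on slide 2, against 11.99 and 11.31 on slide 1. Both were higher on slide 2 without overlap, by 1.23 and 1.14, and neither passed in limma (adjusted p = 0.17 each).

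Os02g0280300, annotated as a xyloglucan endotransglycosylase, which cuts and rejoins xyloglucan chains, had overlapping slides. It had 16.18 and 16.52 on slide 2, against 16.22 and 16.78 on slide 1, a difference of -0.15 (limma adjusted p = 0.82). None of the 3 passed in either comparison.

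The gene whose profile over the 4 arrays was most like that of each member was sought among 405 other probes that the study's list annotates, after centring each profile on its own mean. For the cellulase Os04g0674800 it was the root-hair marker CSLD1, Os10g0578200, with a root-mean-square difference of 0.06 on the log2 scale. CSLD1 had 14.44 and 14.90 on slide 2, against 14.03 and 14.22 on slide 1. Of the 405 probes, 203 lay within 0.5 of Os04g0674800, where the median was 0.50. That count does not tell how many lay nearly as close as CSLD1, and whether the closeness is particular to the pair was not tested.

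For Os06g0212300 the closest was Os03g0829200, annotated as a soluble epoxide hydrolase, at 0.04, with 139 probes within 0.5. For Os02g0763900 it was Os01g0795700 at 0.11 and for Os02g0763200 it was Os03g0322200 at 0.18, both annotated as hypothetical proteins. Os02g0763200 had 25 probes within 0.5 and Os02g0763900 had 78. For Os03g0329500 it was Os05g0246300, annotated in the pollen allergen Lol pI family, at 0.19, with 18 probes within 0.5. These likenesses rest on 4 arrays that share their slides.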

How the data were processed

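RNA of 4 root-hair samples was measured, 1 array each. The deposited intensity values were made by the authors with Agilent Feature Extraction, which the file headers give as version 11.5.1.1 and the submitters' processing notes as 9.1. The flags for background, saturation and outliers come from the same files. The authors also deposited log2 values, with a median of 8.39 for each slide 2 array and 7.59 for each slide 1 array. This shared median within a slide points to normalization by slide, but the sources used here do not give the method, and these values served as an alternative.

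Control spots were left out, which left 42477 probes, and 126 outlier values were dropped. Log2 processed signal was scaled by the 75th percentile of its array. Comparisons used limma 3.58.1 in R 4.3.3 with Benjamini-Hochberg adjustment at 0.05, over probes well above background on every array of at least 1 side. The script was tested on simulated data. Tables used pandas 2.3.3 with numpy 2.4.6, and figures matplotlib 3.10.9. Alternatives were no scaling, quantile normalization, normexp on the median signal (offset 50, the mean signal not being used here), the authors' values, other filters, a block for the slide, and each array left out in turn. The number of arrays limits precision. In the main slide comparison the p-values rest on the spread between the arrays within each slide. In the main comparison by cultivar label they rest on the spread between the Don-gin arrays. In both, limma drew the spread of a probe towards that of the other probes tested. Spread between repeated slides or preparations was not measured.

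The members and lists were chosen with earlier results of these data known. Named genes were every member, the annotated pathway genes and markers, and the gene most like each member; the chromosome neighbours were added later. No array identifier matched the RefSeq gene table (0 of the members), so annotation came from the study's gene list, and markers without a match were dropped.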

Additional observations from a re-analysis of the deposited data

How the results depend on the processing

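The levels of the 4 brighter genes moved by less than 1 SD under quantile normalization, under normexp with quantile normalization and in the authors' log2 values. Without scaling the means stay the same by construction. Leaving out 1 array cannot move a mean of 4 by 1 SD, so those runs could not have shown a larger move. Os03g0329500, at 5.31, moved to 7.50 under normexp with quantile normalization and to 6.28 in the authors' log2 values. Leaving out 1 array gave means of 14.55 to 15.03 for Os06g0212300, 11.46 to 12.27 for Os02g0763200, 11.33 to 11.83 for Os02g0763900, 17.01 to 17.29 for Os04g0674800 and 4.94 to 5.63 for Os03g0329500. The study's named probe gave no separate value, since each gene has 1 probe.

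Between slides, 1 gene was called with scaling, 3 without scaling, 3 in the authors' log2 values, 0 under quantile normalization and 0 to 1 when 1 array was left out. Over all probes 1124 were called, against 9539 without scaling, 178 under quantile normalization, 132 under normexp with quantile normalization, 3141 in the authors' values, 3132 without a filter on dim probes, 270 over probes well above background on all arrays, and 0 to 4620 when 1 array was left out. Without replicate 1, limma gave 4353 probes at an unadjusted p under 0.05, and without replicate 2 it gave 6196. Os03g0329500 turned from 0.15 to -0.56 under quantile normalization, -0.12 under normexp with quantile normalization, -0.17 without replicate 1 and -0.88 without the Lon-gin-labelled array, and leaving out 1 array gave -0.88 to 1.17.

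In the comparison of Lon-gin-labelled with Don-gin arrays 0 of the 5 genes were called, and 0 to 1 when 1 array was left out. Over all probes 1 was called, against 64 under quantile normalization, 5 under normexp with quantile normalization, 0 without scaling, 0 in the authors' values, 0 without a filter on dim probes, 35 over probes well above background on all arrays, 1930 with the slide as a block, and 0 to 4620 when 1 array was left out. For Os06g0212300 the difference of -0.19 turned to 0.68 without scaling, 0.0062 under quantile normalization, 0.45 in the authors' values and 0.17 without replicate 3, with -0.54 to 0.17 over the arrays left out. For Os04g0674800 the difference of 0.11 turned to -0.023 without replicate 1, -0.043 without replicate 2 and -0.45 with the slide as a block, with -0.043 to 0.38 over the arrays left out, and for Os02g0763900 the difference of 0.80 turned to -0.043 with that block. For Os03g0329500 the difference of 1.47 was 0.19 under normexp with quantile normalization and 2.34 without scaling. The cause of these changes was not tested, and none of the reversed values passed the test. With 1 array left out, or with the block, 1 residual degree of freedom remained. No paired analysis by replicate number was possible because all samples form 1 group with a number each; the block used the slide.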
